A study of Mus musculus with 58 samples.

Results

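The p200 family (also called the Ifi200 or PYHIN family) is a group of related interferon-inducible genes that lie side by side on mouse chromosome 1. The 9 members described here, Ifi203, Ifi204, Ifi206, Ifi207, Ifi209, Ifi211, Ifi213, Mndal and Aim2, were chosen by family and position and not by any measured value, out of 47643 genes counted in each of 34 bulk RNA-seq libraries of mouse microglia. They span 592 kb (GRCm38, chr1:173350879-173942672). Libraries fell into 8 groups that formed 4 experiments. In the first, primary wild-type microglia received tau fibrils (0N4R full-length wild-type, 2 µg/ml for 24 h; n = 4) or vehicle (n = 4). In the next, microglia were isolated with CD11b beads from male PS19 mice, which carry a P301S human tau transgene, and from non-transgenic (NTG) males, labelled as 11 months old (n = 4 each). In another, cultures that express constitutively active IKKβ from the Rosa26 locus after Cre recombination (IkbkbCA, Cx3cr1 CreERT2/+; IkbkbCA F/F; n = 5) were compared with Cre-free cultures (IkbkbWT, Cx3cr1+/+; IkbkbCA F/F; n = 5). In the last, cultures that lost Ikbkb, the gene for IKKβ, after Cre recombination (Ikbkb-/-, Cx3cr1 CreERT2/+; Ikbkb F/F; n = 4) were compared with Cre-free cultures (Ikbkb+/+, Cx3cr1+/+; Ikbkb F/F; n = 4).

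All cultures of the IKKβ experiments received 4-hydroxytamoxifen, the Cre-free controls included, so the drug was shared, whereas CreERT2 and the loss of a Cx3cr1 allele to its knock-in went with the genotype and cannot be told apart from it. Cultures were grown from the hippocampi and cortices of newborn pups. The labels do not say that the libraries of a group came from separate animals or cultures, so the p-values measure the spread between these libraries, which may be technical. In bulk RNA, a change in the share of a cell type and a change in RNA per cell cannot be told apart.

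Proteins of the p200 family bind DNA through a HIN domain, and most carry a pyrin domain that pairs with the pyrin domains of other proteins. Aim2 senses double-stranded DNA in the cytosol and assembles an inflammasome with the adaptor Asc (Pycard) and caspase-1. Ifi204 is usually treated as a mouse counterpart of human IFI16 and takes part in DNA sensing that runs through Sting (Tmem173), while Ifi202b lacks a pyrin domain and restrains Aim2. Type I interferons induce many of these genes through interferon-stimulated response elements (ISRE) in promoters. IKKβ is the kinase that releases NF-κB from its inhibitor.

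Promoter sequence is shown first because the members differed in response and the family is induced by interferon. RefSeq start sites (GRCm38.p6) were in the promoter table for 8 of the 9 members and for 4 of the 8 other family names that were looked up; Ifi204 had no entry there. An ISRE core, written GAAANNGAA and searched on both strands in the 250 bases before and 50 after the start, occurred in 6 of the 8 members and in 3 of the 4 other family genes, against 8.56% of 32851 promoters of this length. The following 40-base stretches are aligned on the core, which is in capitals where it is intact.
Ifi206: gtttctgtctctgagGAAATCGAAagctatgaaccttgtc (chr1:173491334-173491373, minus strand)
Ifi213: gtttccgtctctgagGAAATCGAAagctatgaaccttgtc (chr1:173599321-173599360, minus strand)
Ifi207: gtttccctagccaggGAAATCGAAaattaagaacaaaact (chr1:173741826-173741865, minus strand)
Mndal: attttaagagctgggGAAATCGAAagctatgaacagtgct (chr1:173880199-173880238, minus strand)
Ifi203: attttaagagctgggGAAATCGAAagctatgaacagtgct (chr1:173942503-173942542, minus strand)
Ifi211: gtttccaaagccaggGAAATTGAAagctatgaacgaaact (chr1:173913059-173913098, minus strand)
Ifi209: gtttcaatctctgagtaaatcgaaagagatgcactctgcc (chr1:173630765-173630804, plus strand)
Ifi208: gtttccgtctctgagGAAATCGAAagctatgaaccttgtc (chr1:173673592-173673631, plus strand)
Ifi214: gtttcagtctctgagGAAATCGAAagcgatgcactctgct (chr1:173536012-173536051, minus strand)
Ifi205: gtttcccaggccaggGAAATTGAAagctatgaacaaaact (chr1:174031865-174031904, minus strand)
Ifi209 carried a single base change in the core (G16T, counted from 1 at the 5′ end of the stretch, the base of most family members first), and Ifi211 and Ifi205 held the core with C21T. The stretches of Mndal and Ifi203 were the same over all 40 bases, as were those of Ifi213 and Ifi208, and that of Ifi206 differed from Ifi213 at 1 base. In the 6 members with a core it lay between positions -73 and -35 relative to the start site. Aim2 held no core in its 300 bases, which are printed whole for comparison. The RefSeq start of Aim2 used here lies inside the longer span that GENCODE gives the gene, as does that of Mndal.
Aim2: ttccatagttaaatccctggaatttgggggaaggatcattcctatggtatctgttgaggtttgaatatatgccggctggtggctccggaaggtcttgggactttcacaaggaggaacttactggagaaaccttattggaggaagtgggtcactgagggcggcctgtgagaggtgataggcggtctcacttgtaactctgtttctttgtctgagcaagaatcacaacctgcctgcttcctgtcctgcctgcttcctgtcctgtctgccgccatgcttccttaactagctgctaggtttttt (chr1:173420354-173420653, plus strand)
The gamma-activated sequence motif TTCNNNGAA was in 0 of the 8 members and in 8.3% of all promoters. The κB consensus was in 2 of the 8 members, Ifi209 and 1 of the 2 promoters of Ifi203, and in 8.46% of all promoters. These matches describe letters and do not show binding.

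The family sequences also bear on how well each member could be counted. Reads came from 3′ ends of transcripts, so a count does not grow with transcript length, and reads with more than 1 best place in the genome were left uncounted. In the last 500 exonic bases, 77.4% of the 50-base windows of Ifi211 recurred in Ifi205 or Mndal, 47.8% of those of Ifi209 in Ifi214, and 26% of those of Ifi206 in the pseudogene Gm18752. The share was 25.9% for Mndal, 18.7% for Ifi213, 9.1% for Ifi203, 3.54% for Ifi207, 1.77% for Ifi204 and 0.52% for Aim2. Levels of Ifi211, Ifi209, Ifi206 and Mndal are therefore uncertain as absolute amounts. Mndal is annotated across Ifi211 and most of Ifi203, and the pseudogene Gm38050 covers 4.91% of the last exonic bases of Mndal on the same strand.

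Total counts ran from 1672052 to 8349128 per library. Of the reads counted, ambiguous or without a feature, 12.4% to 38.3% were assigned to no annotated feature. Reads with more than 1 best place are not part of this share. Microglial markers were present in every group. Ikbkb stood at 22.4 ± 2.85 CPM (counts relative to library size, with TMM factors over the 34 libraries; mean ± SD, n = 4) in Ikbkb-/- and at 51.3 ± 4.56 in Ikbkb+/+, with no overlap (log2 fold change -1.20 ± 0.12 SE, FDR 6.34e-07). It stood at 52.0 ± 6.71 CPM in IkbkbCA and 45.5 ± 7.10 in IkbkbWT (FDR 0.405), which is no check of a transgene whose transcript end may differ. Libraries IkbkbWT 3 and IkbkbCA 3 stood apart in oligodendrocyte markers, whose 4 genes summed to 4273 and 1535 CPM there and to between 216 and 531 CPM in the other 8 libraries of that experiment. Neuronal markers summed to 80.2 and 67.1 CPM in IkbkbWT 4 and 5 and to 60.9 and 55.2 CPM in IkbkbCA 4 and 5, against 3.21 to 19.9 CPM in the other 6.

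**Figure D1:**
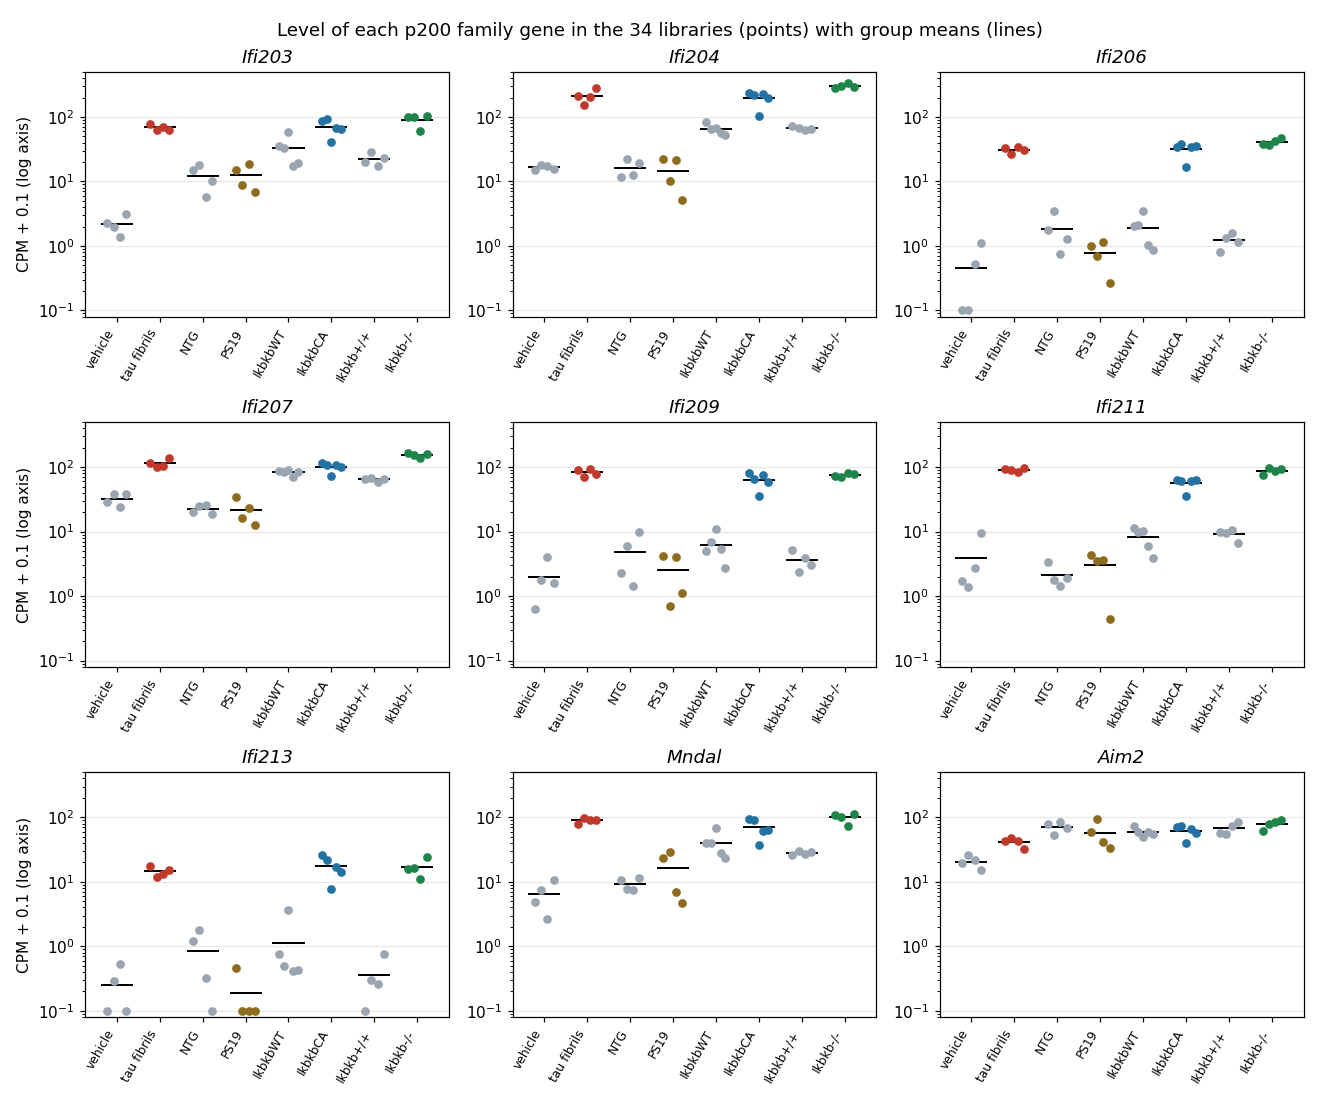
Level of each member in the 34 libraries. The y axes give CPM + 0.1 on a log axis, points are libraries and lines are group means, with control groups in grey. In the tau experiment every tau library lies above every vehicle library for all 9 genes, while Aim2 overlaps between the groups of each of the other 3 experiments.

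Tau fibrils raised all 9 members, from 1.94-fold for Aim2 upward. By edgeR's quasi-likelihood test with Benjamini-Hochberg adjustment over 10408 genes, 9 of 9 members were called higher at a false discovery rate (FDR) under 0.05, where 14.5% of all genes tested were called higher. Each of the 9 had every tau library above every vehicle library, which held for 14.8% of all genes tested. The median log2 fold change of the members was 4.80, or 3.78 with Ifi206 and Ifi213 set to the bounds given below, against -0.01 for all genes tested.

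Ifi206 and Ifi213 were at the edge of detection in vehicle cultures, so the reads bound their change only from below. Ifi206 was read at 0, 0, 0.432 and 0.999 CPM in vehicle (3 reads in all) and at 32.8, 26.8, 33.9 and 30.2 CPM with tau fibrils. Ifi213 was read at 0, 0.186, 0.432 and 0 CPM in vehicle (2 reads in all) and at 17.2, 11.7, 13.3 and 15.3 CPM with tau. Against a floor of 3 counts per vehicle library, Ifi206 was at least 25.0-fold higher and Ifi213 at least 11.6-fold higher with tau fibrils. The fitted log2 fold changes, 6.61 ± 0.47 SE (FDR 6.22e-12) and 6.00 ± 0.57 SE (FDR 2.70e-09), depend on how absent reads are handled.

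Ifi209, Ifi203 and Ifi211 were also near the bottom in vehicle and rose to levels between 62.9 and 97.6 CPM. Ifi209 was at 0.533, 1.68, 3.89 and 1.5 CPM in vehicle and at 91.2, 69.9, 93.7 and 77.3 CPM with tau fibrils, a log2 fold change of 5.39 ± 0.28 SE (FDR 9.01e-15). Ifi203 was at 2.13, 1.86, 1.29 and 3 CPM in vehicle and 78.4, 63.2, 70.5 and 62.9 CPM with tau fibrils (5.05 ± 0.26 SE, FDR 5.83e-15). Ifi211 was at 1.6, 1.3, 2.59 and 9.49 CPM in vehicle and 94.5, 90.0, 84.8 and 97.6 CPM with tau (4.80 ± 0.31 SE, FDR 1.17e-12). Vehicle 4 was well above the other vehicle libraries for Ifi211 and still far below every treated library.

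Mndal, named for its likeness to the human myeloid nuclear differentiation antigen, and Ifi204 had measurable levels in vehicle. Mndal was at 4.8, 7.27, 2.59 and 10.5 CPM in vehicle and 79.5, 97.1, 90.0 and 92.1 CPM with tau fibrils (3.78 ± 0.24 SE, FDR 4.68e-13). Ifi204 was at 14.9, 17.9, 17.3 and 15.5 CPM in vehicle and 213, 151, 204 and 279.8 CPM with tau fibrils (3.65 ± 0.18 SE, FDR 4.34e-15), the highest treated mean of the 9 members. The 4 vehicle libraries were close to each other for Ifi204, whereas the treated ones ranged more widely.

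Ifi207 and Aim2 were the members with the highest vehicle levels and the smallest changes. Ifi207 was at 28.3, 38.8, 23.7 and 38.5 CPM in vehicle and 116, 99.7, 103 and 136 CPM with tau fibrils (1.77 ± 0.17 SE, FDR 3.05e-09). Aim2 was at 19.7, 25.7, 21.6 and 15 CPM in vehicle and 42.2, 47.7, 42.8 and 31.7 CPM with tau fibrils (0.95 ± 0.20 SE, FDR 0.000656). The lowest treated library for Aim2 was close to the highest vehicle library.

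The genes around this family response moved in the same comparison. Of the interferon response list (30 genes), 29 were tested and 29 were called higher (median log2 fold change 4.13), among them Trim30a at 2.83 and Ifit3 at 4.66. Of the interferon signalling list, 13 of 17 tested genes were called higher, with Irf7, a transcription factor of the type I response, at 6.32 and Irf8 at 0.17 (FDR 0.387). Of the DNA sensing and inflammasome list, 12 of 15 tested genes were called higher, including Pycard, the Aim2 adaptor, at 1.69, and Il1b, the cytokine that caspase-1 matures, at 3.29. Of the NF-κB response list, 15 of 17 were called higher, with Nfkbia, the gene for the inhibitor IκBα, at 1.13.

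Marker levels of several cell types moved with tau treatment as well. The 8 microglial markers summed to between 10534 and 12052 CPM with tau and 4489 to 5781 CPM in vehicle, with 5 of 8 called higher. The 4 neuronal markers summed to 46.9 to 57.8 against 88.5 to 108 CPM, with 3 of 4 called lower, and the 4 astrocyte markers to 295 to 364 against 562 to 611 CPM, with 2 of 4 called lower. Border-associated macrophage markers summed to 107.2 to 113.9 CPM with tau and 55.5 to 91.0 CPM in vehicle, with 1 of 2 tested called higher, and Lyve1 at 0 with tau and Cd163 at 0 in vehicle. Fibroblast markers summed to 38.1 to 53.0 against 47.4 to 85.3 CPM, with 1 of 3 tested called lower, and Dcn was at 0 in vehicle. Granulocyte markers summed to 1.49 to 5.61 CPM over both groups, with Ly6g and Retnlg at 0, and all 4 markers of T and NK cells were at 0. The part of these cells in the fold changes was not tested.

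A narrower set was higher in the IkbkbCA cultures, where CreERT2 and the Cx3cr1 knock-in also went with the genotype. In IkbkbCA against IkbkbWT, 6 of 9 members were called higher by edgeR's quasi-likelihood test, where 7.31% of 11697 genes were called higher, and 5 of 9 had every IkbkbCA library above every IkbkbWT library, which held for 6.94% of genes. The median log2 fold change of the members was 1.58, against -0.05 for all genes tested. Ifi207, Mndal and Aim2 were not called.

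Ifi206, Ifi213 and Ifi209 had the largest fitted fold changes of the members in IkbkbCA. Ifi206 was at 1.94, 2, 3.35, 0.946 and 0.769 CPM in IkbkbWT and 34.5, 38.2, 16.7, 34.5 and 35.1 CPM in IkbkbCA (4.17 ± 0.36 SE, FDR 2.08e-05). Ifi213 was at 0.648, 0.401, 3.53, 0.315 and 0.33 CPM in IkbkbWT and 25.8, 21.4, 7.72, 16.7 and 14.2 CPM in IkbkbCA (4.07 ± 0.59 SE, FDR 0.000716). Ifi209 was at 4.86, 6.82, 10.8, 5.2 and 2.64 CPM in IkbkbWT and 81.9, 65.7, 35.3, 74.2 and 58.4 CPM in IkbkbCA (3.40 ± 0.33 SE, FDR 4.22e-05). IkbkbWT 3 was the highest control and IkbkbCA 3 the lowest IkbkbCA library for each of these genes, and the groups did not overlap.

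Ifi211 was at 11.2, 9.82, 10.0, 5.83 and 3.74 CPM in IkbkbWT and 62.7, 61.3, 35.7, 60.1 and 62.5 CPM in IkbkbCA (2.80 ± 0.27 SE, FDR 4.18e-05). Ifi204 was at 82.1, 65.2, 67.1, 55.3 and 51.6 CPM in IkbkbWT and 232, 217, 104, 226 and 200.1 CPM in IkbkbCA (1.58 ± 0.20 SE, FDR 0.000328). For both, IkbkbCA 3 was the lowest library of its group and still above all controls.

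Ifi203 and Mndal, which have the same 40-base promoter stretch, overlapped between the groups in the libraries numbered 3. Ifi203 was at 35.3, 33.3, 58.4, 17.3 and 19.2 CPM in IkbkbWT and 85.3, 93, 40.6, 67.2 and 66 CPM in IkbkbCA (1.09 ± 0.32 SE, FDR 0.0378). Mndal was at 39.4, 40.5, 66.9, 27.7 and 23.2 CPM in IkbkbWT and 94.6, 91.8, 37, 62.3 and 62.8 CPM in IkbkbCA (0.80 ± 0.30 SE, FDR 0.103). In both genes IkbkbWT 3 lay above IkbkbCA 3, so the groups overlapped. The call on Ifi203 was lost when any 1 of 8 of the 10 libraries was left out (FDR 0.0628 to 0.0942); it was kept without IkbkbWT 3 (1.41, FDR 0.00601) or without IkbkbCA 3 (1.26, FDR 0.0194). Mndal passed the threshold without IkbkbWT 3 (1.08, FDR 0.0227) or IkbkbCA 3 (0.98, FDR 0.0372), and by DESeq2 with all libraries (FDR 0.0413).

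Ifi207 was at 86.5, 84, 90.7, 69.5 and 84.2 CPM in IkbkbWT and 115, 109, 73.5, 106 and 102 CPM in IkbkbCA (0.26 ± 0.12 SE, FDR 0.183), and it passed the threshold without IkbkbCA 3 (0.38, FDR 0.0124). Aim2 was at 72.5, 59.3, 50.01, 59.9 and 55.5 CPM in IkbkbWT and 69.8, 74.2, 39.7, 65.3 and 56.1 CPM in IkbkbCA (0.01 ± 0.16 SE, FDR 0.972; 95% interval, -0.29 to 0.32). With IkbkbWT 3 and IkbkbCA 3 both left out, an alternative chosen after seeing the data, 8 of 9 members were called higher, with Ifi203 at 1.58, Mndal at 1.26 and Ifi207 at 0.42, and Aim2 was the member not called. With IkbkbWT 4, IkbkbWT 5, IkbkbCA 4 and IkbkbCA 5 left out, the libraries with the most neuronal markers and also chosen after seeing the data, 5 of 9 were called higher and Ifi203 was not (0.77, FDR 0.290). The share of all genes called is given above for the full set of libraries only, so the counts of these smaller fits have no share beside them.

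Of the interferon response list, 29 of 30 genes were called higher in IkbkbCA (median log2 fold change 2.41), and of the NF-κB response list 13 of 18 tested genes, with Nfkbia at 1.38. Of the interferon signalling list, 9 of 18 were called higher, with Irf7 at 4.20. Of the DNA sensing and inflammasome list, 8 of 16 were called higher, and Pycard was at 0.07 (FDR 0.766). Markers of border-associated macrophages, brain macrophages that sit outside the parenchyma, summed to 473 to 1011 CPM in IkbkbCA and 1275 to 1643 CPM in IkbkbWT, with 2 of 3 tested called lower. The share of all genes called lower in IkbkbCA is not given here. Granulocyte markers summed to 15.8 to 80.3 CPM in IkbkbCA and 5.52 to 10.6 CPM in IkbkbWT, with 1 of 2 tested called higher. The part of these cells in the fold changes was not tested.

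**Figure D2:**
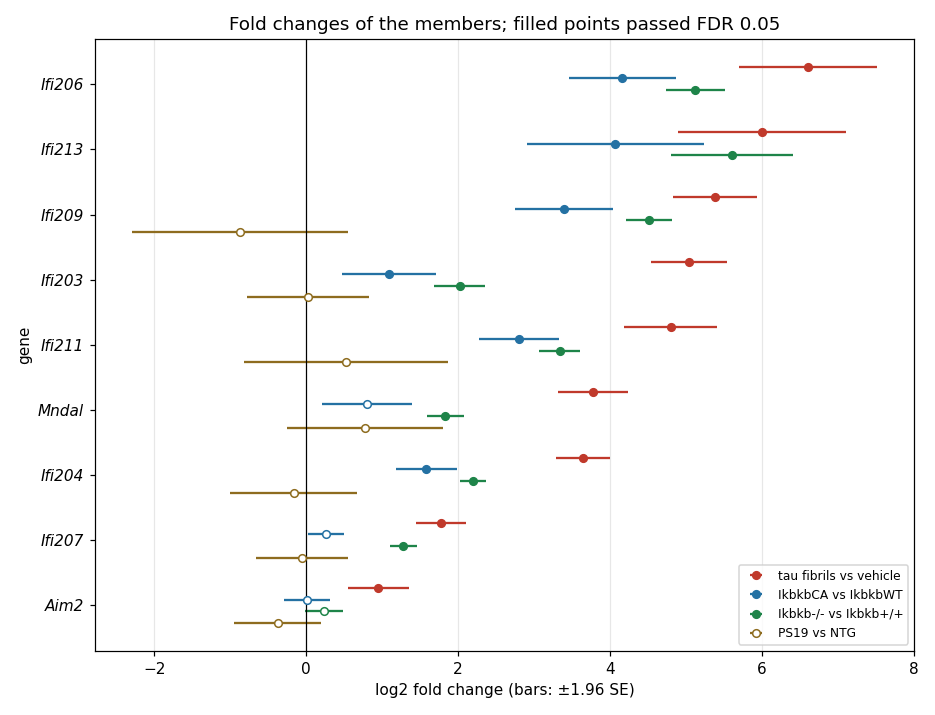
Log2 fold change of each member in the 4 comparisons, from edgeR. Points are estimates, bars are 95% intervals, and filled points passed an FDR of 0.05; Ifi206 and Ifi213 were not tested in PS19 against NTG. Fitted fold changes run from 0.95 for Aim2 to 6.61 for Ifi206 with tau fibrils, where Ifi206 and Ifi213 had few vehicle reads, and lie between -0.87 and 0.78 for the 7 members tested in PS19.

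Members of the family were also higher in the Ikbkb-/- cultures, where CreERT2 and the Cx3cr1 knock-in again went with the genotype. In Ikbkb-/- against Ikbkb+/+, 8 of 9 members were called higher, where 7.64% of 11242 genes were called higher, and the same 8 had every Ikbkb-/- library above every Ikbkb+/+ library, which held for 9.11% of genes. The median log2 fold change was 2.202, against 0.00 for all genes tested. Only Aim2 was not called.

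Ifi213 was at 0, 0.205, 0.164 and 0.662 CPM in Ikbkb+/+ and 15.8, 16.3, 11.1 and 24 CPM in Ikbkb-/- (5.61 ± 0.41 SE, FDR 1.41e-08). Ifi206 was at 0.718, 1.23, 1.48 and 1.06 CPM in Ikbkb+/+ and 38.3, 37, 42.9 and 47.1 CPM in Ikbkb-/- (5.13 ± 0.20 SE, FDR 1.54e-12). Ifi209 was at 5.03, 2.25, 3.77 and 2.91 CPM in Ikbkb+/+ and 73.2, 69.8, 80.2 and 79.2 CPM in Ikbkb-/- (4.52 ± 0.16 SE, FDR 5.41e-13). These 3 were again the members with the lowest control levels.

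Ifi211 was at 9.7, 9.42, 10.5 and 6.49 CPM in Ikbkb+/+ and 74.9, 96.8, 87.1 and 94.1 CPM in Ikbkb-/- (3.34 ± 0.14 SE, FDR 5.08e-12). Ifi204 was at 72.9, 66.6, 62.5 and 65.3 CPM in Ikbkb+/+ and 284, 305, 339 and 289.9 CPM in Ikbkb-/- (2.202 ± 0.09 SE, FDR 2.51e-12). The lowest knockout library stood at 283.6 CPM for Ifi204, and the group mean of 304.4 ± 24.7 CPM was the highest of any member in any group. Ifi203 was at 20.1, 28.5, 17.4 and 23 CPM in Ikbkb+/+ and 98.9, 99.5, 59.7 and 105 CPM in Ikbkb-/- (2.03 ± 0.17 SE, FDR 1.10e-07). Mndal was at 25.5, 29.5, 26.7 and 28.9 CPM in Ikbkb+/+ and 109, 102, 74.2 and 112 CPM in Ikbkb-/- (1.84 ± 0.12 SE, FDR 5.30e-09). Ikbkb-/- 3 was the lowest knockout library for both Ifi203 and Mndal.

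Ifi207 was at 66.1, 67.6, 58.2 and 65 CPM in Ikbkb+/+ and 166, 156, 139 and 162 CPM in Ikbkb-/- (1.28 ± 0.09 SE, FDR 7.77e-09). Aim2 was at 56.4, 55.7, 73.9 and 83.3 CPM in Ikbkb+/+ and 60.7, 78.1, 85.5 and 90.8 CPM in Ikbkb-/- (0.24 ± 0.13 SE, FDR 0.253; 95% interval, -0.01 to 0.49), with overlapping groups.

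In Ikbkb-/-, 28 of 30 interferon response genes were called higher (median log2 fold change 2.83). Of the NF-κB response list, 8 of 17 tested genes were called lower and 1 higher, with Nfkbia at -1.60 and Ccl2 at -0.66. The share of all genes called lower in Ikbkb-/- is not given here, so counts called lower have no share beside them. Of the interferon signalling list, 7 of 18 were called higher and 1 lower, with Irf7 at 5.07, and of the DNA sensing and inflammasome list 4 of 16 were called higher. Border-associated macrophage markers summed to 408 to 706 CPM in Ikbkb-/- and 1412 to 1663 CPM in Ikbkb+/+, with 3 of 3 tested called lower. The dendritic cell list (Flt3, Xcr1, Siglech and Cd209a) summed to 307, 204, 92.3 and 9.80 CPM in the 4 Ikbkb+/+ libraries and to 8.01 to 15.5 CPM in Ikbkb-/-. This sum does not show which cells held the reads. Granulocyte markers summed to 6.89 to 334 against 7.10 to 10.5 CPM. The 1 dendritic cell and 2 granulocyte markers tested were called lower. Oligodendrocyte markers summed to 360 to 422 CPM in Ikbkb-/- and 185 to 278 CPM in Ikbkb+/+, with 3 of 4 called higher. The part of these cells in the fold changes was not tested.

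The fold changes of the family in IkbkbCA and in Ikbkb-/- were then compared with each other. The difference of the log2 fold changes (IkbkbCA effect minus Ikbkb-/- effect, 18 libraries) was negative for all 9 members, between -1.54 for Ifi213 and -0.21 for Aim2. Its median was -0.94 for the members and -0.04 for all genes tested. For the interferon response list the median was -0.39, with 4 of 30 genes positive. The difference was positive for the other family genes tested, Ifi205 (1.04, FDR 0.538) and Ifi208 (0.32, FDR 0.882), neither of them called. Of the members, only Ifi207 was called (-1.01 ± 0.16 SE, FDR 0.000813), 1 of 9 members, where 0.899% of 12352 genes were called lower and 2.23% higher; 5 of the 9 had an unadjusted p under 0.05, as did 1889 of the 12352 genes. The fold change of Ifi207 was thus larger in Ikbkb-/- than in IkbkbCA. The Cre-free controls differed as well, with Ifi207 at 64.2 ± 4.16 CPM in Ikbkb+/+ and 83.0 ± 8.00 CPM in IkbkbWT, without overlap. Each IKKβ experiment had its own line and controls, so experiment and genotype cannot be told apart in this difference. With IkbkbWT 3 and IkbkbCA 3 both left out, or libraries 4 and 5 of both these groups, 1 of 9 was called. On the NF-κB response list, 13 of 18 tested genes were called higher in the same difference and 0 lower, and on the interferon response list 0 of 30 were called higher and 1 lower by edgeR.

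The fold change of 7 of the 9 members was called larger with tau fibrils than in IkbkbCA (tau fibril effect minus IkbkbCA effect). In this difference 5.86% of 12841 genes were called higher. The difference was 3.89 ± 0.52 SE for Ifi203 (FDR 7.25e-05), 2.91 ± 0.47 for Mndal (FDR 0.000394), 2.00 ± 0.30 for Ifi204 (FDR 0.000251) and 1.44 ± 0.22 for Ifi207 (FDR 0.000207). It was 1.93 for Ifi209 (FDR 0.0304), 1.91 for Ifi211 (FDR 0.0247) and 0.87 for Aim2 (FDR 0.0390). Ifi206 (2.47, FDR 0.0707) and Ifi213 (2.01, FDR 0.331; 95% interval, -0.36 to 4.38) were not called. Leaving out vehicle 1 left 4 called (Ifi203, Ifi204, Ifi207 and Mndal), with Ifi209 at an FDR of 0.067, Ifi211 at 0.0561 and Aim2 at 0.0665. Ifi209 also lost its call without vehicle 2 (FDR 0.0971) or vehicle 4 (FDR 0.0631), Ifi211 without vehicle 2 (FDR 0.102) or vehicle 3 (FDR 0.0557), and Aim2 without any 1 of 10 of the 18 libraries (FDR 0.0507 to 0.0847). Ifi206 was called without vehicle 4 (3.62, FDR 0.0344) or IkbkbWT 5 (2.69, FDR 0.0350). This difference shares the IkbkbCA and IkbkbWT libraries with the one before. The tau and IKKβ cultures were separate experiments, so the experiment and the treatment cannot be told apart in this difference.

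For Ifi203, Mndal and Ifi204, the levels behind these differences lay closer in the treated than in the control cultures. Ifi203 stood at 68.7 ± 7.31 CPM with tau fibrils and 70.4 ± 20.3 CPM in IkbkbCA, whose ranges overlapped, but at 2.07 ± 0.71 CPM in vehicle and 32.7 ± 16.5 CPM in IkbkbWT, whose ranges did not. Mndal stood at 89.7 ± 7.43 CPM with tau fibrils and 69.7 ± 23.9 CPM in IkbkbCA, with overlapping ranges, and at 6.29 ± 3.39 CPM in vehicle and 39.5 ± 17.01 CPM in IkbkbWT, with no overlap. Ifi204 stood at 212 ± 52.8 and 196 ± 52.8 CPM against 16.4 ± 1.41 and 64.3 ± 11.9 CPM. Vehicle cultures were the group with the lowest level for Ifi203, Ifi206, Ifi209, Mndal and Aim2 among the 8.

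In PS19 microglia none of the 7 members tested was called. Over 11323 genes, 0.0707% were called in either direction. An unadjusted p under 0.05 by edgeR was found for 0 of 7 members and for 977 of the 11323 genes. DESeq2, which gave an FDR for 5 of these members, and limma-voom also called 0. None of the 9 members had every PS19 library above every NTG library, which held for 3.86% of genes tested. Aim2, the highest member in both groups, was at 58.4, 94.4, 40.6 and 33.4 CPM in PS19 and 78.4, 52.8, 84.5 and 68.5 CPM in NTG (-0.37 ± 0.29 SE, FDR 0.762; 95% interval, -0.95 to 0.20). Ifi204 was at 22.2, 10.1, 21.1 and 5.12 CPM in PS19 and 11.5, 21.8, 12.6 and 19.2 CPM in NTG (-0.16 ± 0.43 SE, FDR 0.943; 95% interval, -1.005 to 0.68). Mndal was at 23.5, 29.3, 6.8 and 4.61 CPM in PS19 and 10.4, 7.55, 7.27 and 11.4 CPM in NTG (0.78 ± 0.53 SE, FDR 0.709; 95% interval, -0.26 to 1.81). PS19 libraries spread more widely than NTG libraries in each of these genes, on both sides of the NTG range.

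The other members tested were Ifi203 (0.03 ± 0.41 SE), Ifi207 (-0.06 ± 0.31), Ifi209 (-0.87 ± 0.72) and Ifi211 (0.53 ± 0.69), with FDR of 0.775 to 0.993. Ifi206 and Ifi213 did not pass the filter on low counts. Ifi206 had between 1 and 8 reads in each of the 8 libraries and overlapped between the groups. Ifi213 had 2 reads in the 4 PS19 libraries and 7 in the 4 NTG libraries. Of the interferon response list, 0 of 25 tested genes were called by edgeR. Irf7, on the interferon signalling list, was at 1.201 (FDR 0.193 by the same test). The dendritic cell list summed to 1059 to 2129 CPM in PS19 and 2000 to 2676 CPM in NTG, and granulocyte markers to 341 to 2177 against 1276 to 1931 CPM. Which cells held the reads of the dendritic cell list was not tested, nor was the part of any cell type.

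Across the 8 groups the members kept different orders. The sum over all 13 family genes adds counted reads only and does not restore reads lost between near-identical copies. For this sum, vehicle was lowest at 85.3 ± 11.9 CPM, followed by PS19 at 136 ± 46.7, NTG at 142 ± 3.22 and Ikbkb+/+ at 264 ± 9.26. Next came IkbkbWT at 297 ± 54.0, IkbkbCA at 686 ± 163, tau fibrils at 784 ± 61.4 and Ikbkb-/- at 970 ± 42.1. Neighbours in this order overlapped in range except NTG with Ikbkb+/+, IkbkbWT with IkbkbCA, and tau fibrils with Ikbkb-/-. Aim2 had another order: vehicle was lowest (20.5 ± 4.45 CPM) and tau fibrils next (41.1 ± 6.75), and the remaining 6 groups, from 56.7 in PS19 to 78.8 in Ikbkb-/-, overlapped each with its neighbour. The tau libraries thus had less Aim2 than the Cre-free controls of either IKKβ experiment, with no overlap in range, while the 8 members other than Aim2 summed to 704 ± 75.3 CPM with tau fibrils and to 237 ± 54.1 and 195 ± 10.6 CPM in those controls. Levels set across experiments cannot be told apart from the experiment itself.

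**Figure D3:**
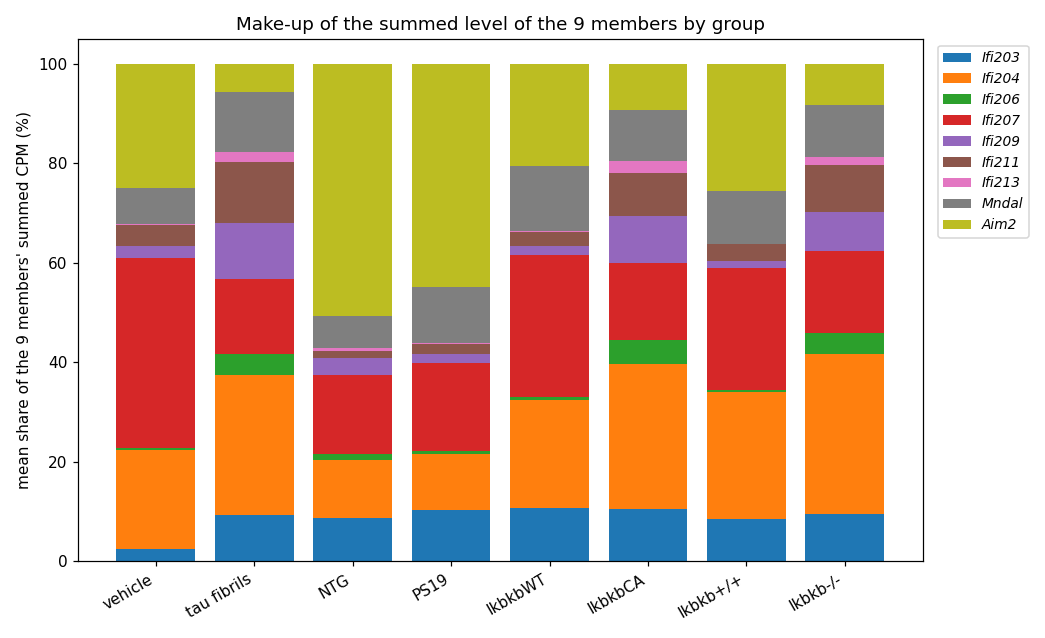
Make-up of the summed level of the 9 members. Bars give the mean share in percent of the 9 members' summed CPM in each group, over 4 or 5 libraries. Ifi207 and Aim2 take 63.2% of the sum in vehicle and 20.8% with tau fibrils, and Aim2 takes the largest share in PS19 and NTG.

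The make-up of the family changed with its level. Aim2 took 24.9 ± 6.10% of the 9 members' summed CPM in vehicle and 5.61 ± 1.40% with tau fibrils, 20.6 ± 4.20% in IkbkbWT and 9.25 ± 0.67% in IkbkbCA, and 25.6 ± 4.59% in Ikbkb+/+ and 8.27 ± 1.23% in Ikbkb-/-. In freshly isolated adult microglia it took 44.9 ± 11.8% in PS19 and 50.7 ± 9.49% in NTG. Ifi207 took 38.3 ± 4.14% in vehicle and 15.2 ± 1.03% with tau. Ifi204 took 28.1 ± 4.51% with tau fibrils, 29.1 ± 1.99% in IkbkbCA and 32.1 ± 3.41% in Ikbkb-/-, against 19.9 ± 2.95% in vehicle, 21.8 ± 2.19% in IkbkbWT and 25.5 ± 2.09% in Ikbkb+/+. These shares do not depend on library scaling, since each is a ratio within a library.

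The other family genes were read at low levels. Ifi205 and Ifi208 were called higher with tau fibrils (at least 21.1-fold and 9.9-fold against a floor of 3 counts per vehicle library), in IkbkbCA (4.67 on the log2 scale for Ifi205, and at least 15.98-fold for Ifi208 against the same floor) and in Ikbkb-/- (3.60 and 4.88 on the log2 scale), and were not tested in PS19. Ifi205 had its highest mean with tau fibrils, at 26.1 ± 6.32 CPM, and was at or below 1.48 CPM in every library of the controls and of PS19. Ifi214 had at most 24 reads in a library and was not tested anywhere. The 8 other annotated genes of the interval were mostly silent: Cadm3, a cell adhesion gene, had up to 79 reads, and the pseudogenes and miRNAs between 0 and 10 reads at most.

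Ifi202b, the family member without a pyrin domain, was read in few libraries. It had 0 reads in all 8 tau and vehicle libraries, in all 5 IkbkbWT and in all 4 Ikbkb-/- libraries, and 1 read in IkbkbCA 5. In Ikbkb+/+ it had 10, 3, 7 and 0 reads in libraries 1 to 4. In PS19 it had 20, 10, 107 and 29 reads and in NTG 0, 0, 13 and 5 reads, with every PS19 library above every NTG library in CPM (6.85 ± 6.03 against 1.47 ± 1.69 CPM; log2 fold change 2.10 ± 0.84 SE, FDR 0.515). The NTG libraries without reads, 1 and 2, were labelled 11.18 months old and the other 6 libraries 10.98 months. Expression of Ifi202b is known to differ between inbred strains. The 3 Ikbkb+/+ libraries with reads were those with 92.3 to 307 CPM of the dendritic cell list. Granulocyte markers were also highest in those libraries (334, 79.5, 29.2 and 6.89 CPM in libraries 1 to 4). NTG 1 and 2, with 0 reads, held 2113 and 2045 CPM of the dendritic cell list, and PS19 1, with 20 reads, held 1059 CPM. The part of strain, age and cell types was not tested.

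**Figure D4:**
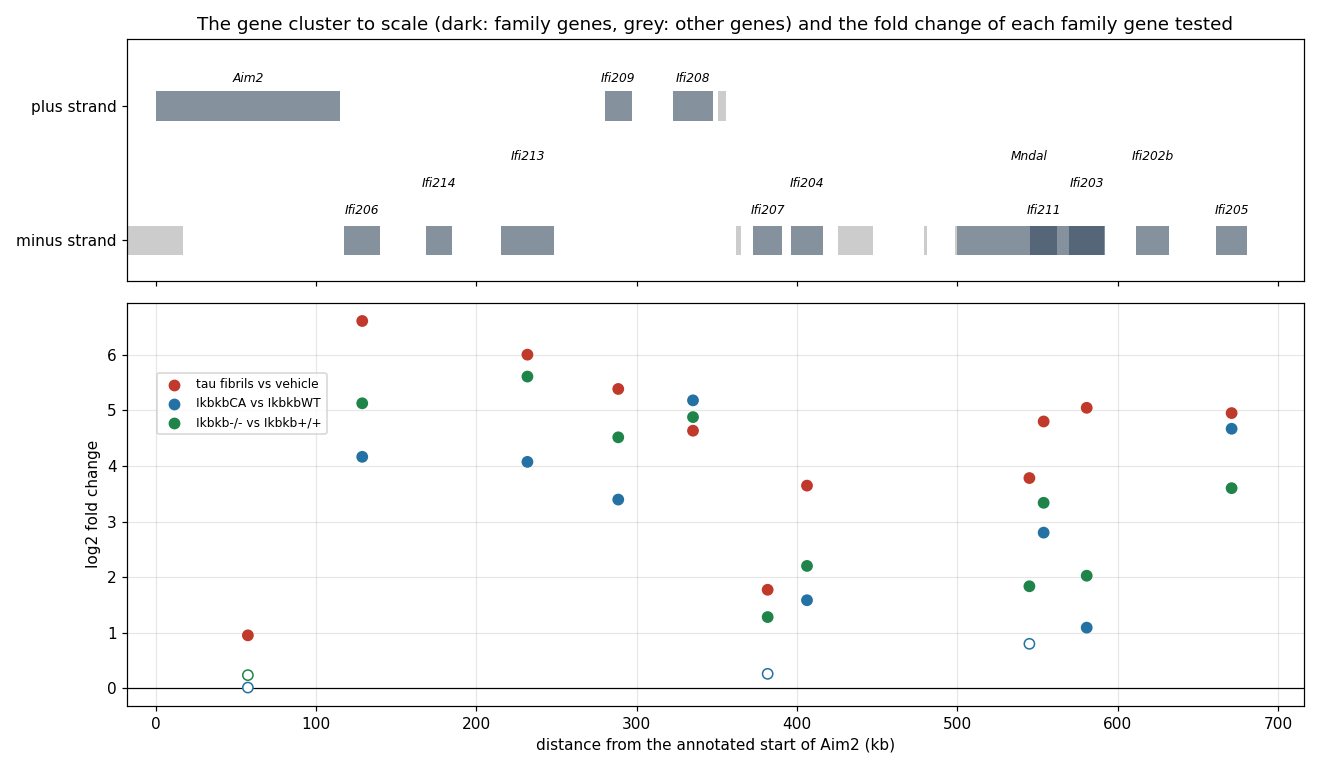
The gene cluster to scale and the fold change of each family gene tested. The x axis gives kb from the annotated start of Aim2; dark bars are family genes, grey bars other genes, and the lower panel gives log2 fold changes, filled where FDR was under 0.05. Among the members with tau fibrils, Aim2, at the left end, has the smallest fold change, 0.95; the values drawn for Ifi206, Ifi213, Ifi205 and Ifi208 are fitted ones against vehicle libraries with few reads.

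Position did not order the fold changes from 1 end to the other. Aim2, the first gene of the row, had the smallest fold change in each of the 3 culture comparisons, while Ifi206, whose annotated end lies next to it, was at least 25.0-fold higher with tau fibrils. Ifi207 and Ifi204 lie next to each other and had unequal values, with Ifi207 at 1.77 and Ifi204 at 3.65 with tau fibrils, and 0.26 and 1.58 in IkbkbCA. Ifi211 and Ifi203, both overlapped by the annotated span of Mndal, were at 2.80 and 1.09 in IkbkbCA.

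Within groups the members rose and fell together only in part. Over the 34 libraries, each minus its group mean, the 28 pairs among the 8 members other than Aim2 had Pearson r of log2 CPM between 0.12 and 0.76 (median 0.52), and the 8 pairs of Aim2 with another member between -0.12 and 0.47 (median 0.10). With each library minus its experiment mean, the 28 pairs ran from 0.78 to 0.97 and the Aim2 pairs from 0.46 to 0.66. The points share libraries, depth and, for near-identical copies, lost reads, and IkbkbWT 3 and IkbkbCA 3 are among them. Outside the family, the genes most like the mean of the members over the 34 libraries, each minus its experiment mean, included Trim30a (r = 0.98), Isg15 (0.98), Phf11d (0.97) and Ifih1 (0.97), out of 13709 genes. Isg15 and Trim30a are on the interferon response list.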

How the data were processed

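Bulk RNA was sequenced from 34 libraries of mouse microglia with a 3′-end kit (QuantSeq FWD). The authors deposited raw counts per gene for each library, made with the QuantSeq pipeline on GRCm38; their processing notes also name STAR, RSEM, edgeR and limma, and the strand setting is not given in the sources used here. The 5 closing lines that name no gene were left out of library sizes and tests. Libraries were grouped by their labels; 24 cortex samples of the series were not analysed here. Counts were tested with edgeR 4.0.16 (R 4.3.3; TMM scaling, quasi-likelihood test, count minimum of 10 and total minimum of 15 for a gene to enter), separately for each comparison and with an interaction contrast for each difference between comparisons. P-values were adjusted by Benjamini-Hochberg over all genes tested, with a threshold of 0.05. Intervals are 95% normal intervals from the SE. Where every library of the lower group had 3 reads or fewer, a bound on the fold was computed with 3 counts per library. It covers counting error only, and not in a library that itself held 3 reads. Alternatives were RLE and total-count scaling, DESeq2 1.42.0, limma-voom (limma 3.58.1), no filter, each library left out, an age term for PS19, and, added after seeing the data, IkbkbWT 3 and IkbkbCA 3 both left out and libraries 4 and 5 of both groups left out. Scripts were tested on simulated counts. The members and the gene lists were chosen with earlier results of these data known. All 9 members, those of the 5 genes outside the family most like them that can be reported here and, from each list, genes among the 4 with the highest mean level in a comparison were named; Irf7 was named also where it fell outside this rule, with its values known. A gene that met the rule is not reported here. Depth of 1672052 to 8349128 reads per library limits precision for Ifi206 and Ifi213 in controls.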

Additional observations from a re-analysis of the deposited data

Results flagged for a closer look

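Dixon's test on the 9 members in the 8 groups (72 pairs of gene and group) marked 7 single libraries as far from the rest of their group; chance marks about 1 in 20 such pairs. IkbkbCA 3 was low for Ifi204 (103.5 CPM, next library 200.1), for Ifi206 (16.73 CPM, next 34.5) and for Ifi211 (35.66 CPM, next 60.1). IkbkbWT 3 was high for Ifi213 (3.532 CPM, next 0.648). These are the libraries with the highest oligodendrocyte marker sums of their groups, and the part of that in the values was not tested. Ikbkb-/- 3 was low for Ifi203 (59.69 CPM, next 98.92). Vehicle 4 was high for Ifi211 (9.489 CPM, next 2.59). PS19 1 held 2 reads of Ifi213 (0.3584 CPM) where the other 3 PS19 libraries held 0.

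The fold change of Ifi207 differed between IkbkbCA and Ikbkb-/- by edgeR's interaction test (-1.005 on the log2 scale, FDR 0.000813).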

How the results depend on the processing

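No paired analysis was possible because the labels give no replicate number that is shared between the groups compared. The number of members called stayed at 9 with tau fibrils, 0 in PS19, 8 in Ikbkb-/- and 1 in the difference between the IKKβ effects under every alternative and with any library left out. In IkbkbCA it ran from 5 to 8 over the alternatives, with 5 when libraries 4 and 5 of both groups were left out, and from 5 to 8 with a library left out. For the tau fibril effect minus the IkbkbCA effect it was 7, ran from 5 to 8 over the alternatives, and from 4 to 8 with a library left out. Limma-voom lost Ifi209 (FDR 0.172) and Aim2 (FDR 0.0830) there, and DESeq2 (FDR 0.0474) and no filter (FDR 0.0272) added Ifi206; the cause was not tested. Without libraries 4 and 5 of both IKKβ groups, Aim2 lost its call (FDR 0.0885) and Ifi206 gained one (FDR 0.0251) there. Of 935 alternative values of the members' fold changes, 879 kept direction and side of the threshold, 28 lost and 11 gained a call, and 17 changed direction. Aim2 in IkbkbCA changed direction with total-count scaling (-0.0466), with limma-voom (-0.0095) and with 5 of 10 libraries left out in turn (range -0.0633 to 0.16). In PS19, Ifi203 (-0.25 to 0.31), Ifi207 (-0.39 to 0.14) and Ifi204 (-0.45 to 0.13) changed direction with a library left out. Total-count scaling moved the median of all genes with tau fibrils from -0.01 to -0.16, and the levels of Ifi204 in vehicle to 18.7 CPM and of the 13-gene sum to 97.5 CPM in vehicle and 127.9 CPM in NTG.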

Other observations

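Ifi214, which did not pass the filter on low counts in any comparison, had 24 reads in PS19 3 and between 0 and 12 in the other 33 libraries. PS19 3 was also the library with the most Ifi202b reads (107).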
